A study of Mus musculus with 7 samples.

Results

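The genes described here are 10 genes of major histocompatibility complex (MHC) class I antigen presentation, chosen by name: the heavy chains H2-K1 and H2-D1, the light chain B2m, the peptide transporter genes Tap1 and Tap2, the chaperone gene Tapbp, the immunoproteasome subunits Psmb8, Psmb9 and Psmb10, and the regulator Nlrc5. All 10 were among the 34305 rows of the gene table and all 10 passed the filter on low counts, which left 14808 genes. The RNA came from mouse blood-forming progenitor cultures (HSPCs, haematopoietic stem and progenitor cells) in 3 groups: 3 libraries of cells overexpressing MN1, 3 of cells overexpressing MN1pQdel, and 1 of untransduced cells (noTD). MN1 is a transcriptional co-regulator that drives acute myeloid leukaemia when overexpressed, and MN1pQdel is the same protein without its polyglutamine stretch. All cells grew with interleukin-3, interleukin-6 at 10 ng/mL and stem cell factor at 20 ng/mL, and the transduced ones were sorted; RNA was taken after 7 to 9 days, with no day given for each library. One label field calls the untransduced cells transduced, while their title and their overexpression label do not. Strain, age and donor number were not stated, so every p-value reflects only how these libraries varied, which may be technical.

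MHC class I molecules show short peptides from the cell interior to CD8 T cells. Proteasomes cut proteins, the TAP transporter carries the peptides into the endoplasmic reticulum, and tapasin (Tapbp) holds the heavy chain and beta-2-microglobulin (B2m) ready to receive them. Interferons raise the whole set, in part by exchanging the catalytic proteasome subunits for the immunosubunits, and NLRC5 is the class I transactivator. Blood cells of nearly every type carry class I molecules, at levels that differ between types.

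Totals ran from 38210660 to 67728658 counts per library, of which the 10 genes took 0.237% to 0.386%. Mn1 itself stood at 297 ± 15.1 CPM (estimated counts scaled to library size by TMM) in MN1, 607 ± 177 CPM in MN1pQdel (SD, n = 3 each) and 33.6 CPM in noTD, so the groups also differed in the amount of Mn1 RNA. Of the 8 stem and progenitor markers looked up, among them Kit and Cd34, all were detected. In the test described below 5 were called higher in MN1 than in MN1pQdel, beside 6.08% of all tested genes. Their summed levels overlapped, at 1923 to 2507 CPM in MN1, 1169 to 2384 CPM in MN1pQdel and 2110 CPM in noTD. All 8 neutrophil markers were lower in MN1, with summed levels of 596 to 1407 CPM in MN1, 9864 to 14780.4 CPM in MN1pQdel and 14924 CPM in noTD. MN1pQdel replicate 2 stood apart, with eosinophil markers (5 of the 6 listed were found) summing to 221 CPM against 3196 and 3376 CPM in the other MN1pQdel libraries, and mast cell markers to 1929.5 CPM against 13116 and 16569 CPM. Mn1 RNA in MN1pQdel replicate 2 was also the lowest of its group, at 404 CPM against 691 and 728 CPM in replicates 1 and 3. Within MN1, too, replicate 2 had the lowest sums of both marker lists. Its mast cell sum was 1019.6 CPM against 2773 and 2527 CPM, and its eosinophil sum 11.6 CPM against 19.3 and 18.7 CPM. In bulk RNA, fewer cells of a type and less RNA per cell cannot be told apart.

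The RefSeq windows around the start sites (250 bases before to 50 after, GRCm38.p6) were found for 8 of the 10 genes; Tap2 and Nlrc5 had none. The windows of H2-K1 and H2-D1 are shown because these closely related heavy chain genes had fold changes of opposite sign, that of B2m for their shared partner, and that of Tap1 because it also covers the start of Psmb9. H2-K1 is read on the minus strand (chr17:34000284-34000583), and H2-D1 (chr17:35262844-35263143), B2m (chr2:122147437-122147736) and Tap1 (chr17:34187306-34187605) on the plus strand. Capitals mark matches to the interferon-stimulated response element (GAAA, any 2 bases, GAAA), the interferon-gamma activated site (TTCNNNGAA), the NF-κB consensus or the CCAAT box, on either strand.
H2-K1: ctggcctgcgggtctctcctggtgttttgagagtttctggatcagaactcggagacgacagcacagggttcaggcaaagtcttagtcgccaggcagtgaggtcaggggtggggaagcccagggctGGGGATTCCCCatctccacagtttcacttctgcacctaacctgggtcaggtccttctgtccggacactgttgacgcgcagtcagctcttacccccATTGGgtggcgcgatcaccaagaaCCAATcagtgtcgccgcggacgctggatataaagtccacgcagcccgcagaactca
H2-D1: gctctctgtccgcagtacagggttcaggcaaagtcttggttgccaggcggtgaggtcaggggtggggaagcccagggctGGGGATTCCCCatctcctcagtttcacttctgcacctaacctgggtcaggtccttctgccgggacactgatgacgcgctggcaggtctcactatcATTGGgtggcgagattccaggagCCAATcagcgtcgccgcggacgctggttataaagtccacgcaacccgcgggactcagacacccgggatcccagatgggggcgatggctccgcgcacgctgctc
B2m: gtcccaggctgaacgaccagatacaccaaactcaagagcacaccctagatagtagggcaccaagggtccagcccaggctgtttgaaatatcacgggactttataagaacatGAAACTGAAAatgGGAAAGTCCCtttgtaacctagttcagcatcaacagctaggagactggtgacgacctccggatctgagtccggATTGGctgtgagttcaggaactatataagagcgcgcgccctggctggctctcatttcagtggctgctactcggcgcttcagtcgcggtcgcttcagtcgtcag
Tap1: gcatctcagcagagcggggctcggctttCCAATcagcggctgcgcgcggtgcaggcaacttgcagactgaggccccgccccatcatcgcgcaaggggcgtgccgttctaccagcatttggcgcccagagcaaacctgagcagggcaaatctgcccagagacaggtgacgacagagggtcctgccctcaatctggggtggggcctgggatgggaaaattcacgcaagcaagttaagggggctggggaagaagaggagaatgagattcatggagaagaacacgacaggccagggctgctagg

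The NF-κB consensus was found in 3 of the 8 genes, H2-K1, H2-D1 and B2m, and in 4.51% of all 32851 promoter windows in the table. In H2-K1 and H2-D1 it matched as a pair of overlapping copies 1 base apart, and the windows of these genes were identical at 180 of 254 bases (70.9%) when lined up on that match without gaps. An exact match to the interferon-stimulated response element pattern was found in B2m alone (1 of 8 genes, and 3.44% of all windows). An exact match to the interferon-gamma activated site was found in Psmb8 alone (1 of 8, and 8.30% of all windows). Variant forms of these elements were not searched for, so a window without a match may still hold such an element. The CCAAT box was found in 6 of 8 genes and in 37.4% of all windows, and the match in Tap1 is the same site as that in Psmb9. Tap1 and Psmb9 are transcribed away from each other: their windows share 275 bases, and their annotated gene bodies overlap by 212 bases.

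By location on GRCm38, 7 of the 10 genes lie in the MHC on chromosome 17. Tapbp spans 33915899 to 33929292, H2-K1 33996017 to 34000347, Psmb9 34181987 to 34187764, Tap1 34187553 to 34197225, Psmb8 34197721 to 34201454, Tap2 34203527 to 34216321 and H2-D1 35262730 to 35267499. Psmb9, Tap1, Psmb8 and Tap2 thus follow each other directly. The other 3 are B2m on chromosome 2 (122147686 to 122153083) and Psmb10 (105935735 to 105938444) and Nlrc5 (94434356 to 94527272) on chromosome 8. All are protein coding.

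Between MN1 and MN1pQdel cells, the transporter gene Tap1 and the immunosubunit gene Psmb8 were higher in MN1, at 1.86 and 1.56 times the MN1pQdel level. The other immunosubunits Psmb9 and Psmb10, the heavy chain H2-K1 and the regulator Nlrc5 were also above MN1pQdel in all 3 MN1 libraries without passing the test, B2m, Tap2 and Tapbp differed by less than the spread between libraries, and H2-D1 had the opposite sign. Of the 10 genes, 2 were called higher and 0 lower by the quasi-likelihood test of edgeR at a threshold of 0.05, with p adjusted over all genes after Benjamini and Hochberg, as for every adjusted p given for a gene, where 6.08% of all tested genes were called higher and 11.1% lower. At an unadjusted p under 0.05 the counts were 6 higher and 1 lower, beside 2484 and 3106 of the 14808 genes. DESeq2 called 6 higher and 0 lower, beside 12.9% and 16.4% of all genes. With library totals 5 were higher and 0 lower, beside 12.5% and 7.7% of all genes. The groups did not overlap for 6 of the 10 genes, all higher in MN1, beside 21.9% of all tested genes that were separated with MN1 higher and 21.7% with MN1 lower. The median log2 fold change of MN1 over MN1pQdel was 0.56 for the 10 genes and -0.01 for all tested genes; with library totals in place of TMM scaling these were 0.76 and 0.19. With the replicate number as a block, 4 were higher (Tap1, Psmb8, H2-K1 and Psmb10) and 1 lower (H2-D1), where 13.7% and 17% of all genes were called. Without MN1pQdel replicate 2 the counts were 6 and 1, where 20.6% and 21.3% of all genes were called, and without both replicate 2 libraries 7 and 1, where 17.4% and 17.4% were. Leaving out any of the other 5 libraries gave 0 to 2 higher and 0 lower, where 0.631% to 1.8% of all genes were called higher and 2.49% to 4.51% lower.

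**Figure D1:**
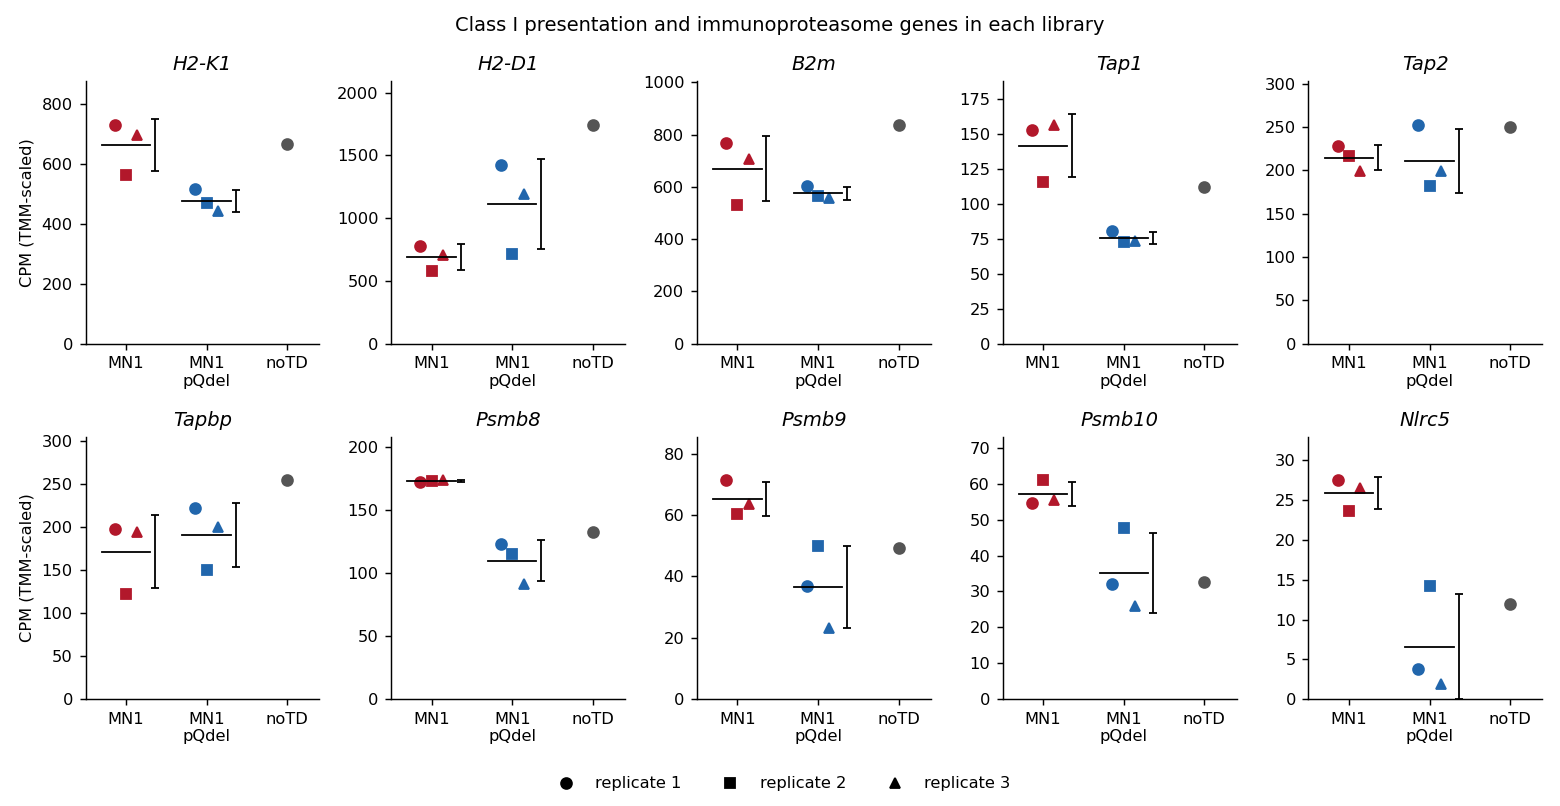
CPM (TMM-scaled, linear axes from 0) of the 10 genes in each library of MN1, MN1pQdel and noTD. Points are libraries, with the shape giving the replicate number, lines are group means and bars are SD over 3 libraries. Psmb8 stands between 172 and 173 CPM in all 3 MN1 libraries, and MN1pQdel replicate 2 (square) is the highest of its group for Psmb9, Psmb10 and Nlrc5 and the lowest for H2-D1, Tap2 and Tapbp.

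H2-K1 encodes the classical heavy chain of the K locus. Its level was 730.2, 563 and 695 CPM in the MN1 libraries, 515, 468 and 443 CPM in the MN1pQdel libraries and 668 CPM in noTD. The MN1 and MN1pQdel libraries did not overlap, and noTD lay among the MN1 values. The means were 663 ± 88.0 CPM in MN1 and 475 ± 36.2 CPM in MN1pQdel (SD, n = 3 each), for which the log2 fold change was 0.47 (SE 0.14; adjusted p = 0.0569). The adjusted p was 0.0329 with the replicate block, 0.0448 without MN1pQdel replicate 2 and 0.0258 with library totals.

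H2-D1, the classical heavy chain gene of the D locus, had 781, 581 and 706 CPM in MN1, 1419.8, 716 and 1191 CPM in MN1pQdel and 1743 CPM in noTD. MN1pQdel replicate 2 fell inside the MN1 range, and noTD lay above every transduced library. The log2 fold change of MN1 over MN1pQdel was -0.70 (SE 0.26, adjusted p = 0.102). It was -0.65 with the replicate block (adjusted p = 0.0329) and -0.92 without MN1pQdel replicate 2 (adjusted p = 0.0060). The mast cell and eosinophil marker sums and the Mn1 level given above were likewise lowest within MN1pQdel in replicate 2. Their part in the H2-D1 values was not tested. In MN1 the mast cell and eosinophil sums were 1019.6 to 2773 CPM and 11.6 to 19.3 CPM, against 13942 and 3465 CPM in noTD. Within MN1, too, both sums and H2-D1 were lowest in replicate 2.

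H2-K1 and H2-D1 are close copies, which limits their separate levels. Of the 31-base stretches in the H2-K1 transcripts of GENCODE M21, 14.3% also occur in H2-D1 and 20.3% in some other gene, and of those in H2-D1 13.6% occur in H2-K1 and 27.9% in some other gene. The ratio of H2-D1 to H2-K1 counts within a library, looked at after the values were seen, was 1.07, 1.03 and 1.02 in MN1, 2.76, 1.53 and 2.69 in MN1pQdel and 2.61 in noTD. The ratio was thus close to 1 in every MN1 library and above 1.5 in every other library. With the mouse strain not stated, it is not known whether the mice carry the annotated alleles of these genes, and the part of allele differences in their levels and ratio was not tested.

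B2m, the light chain of every class I molecule, had 769, 532 and 709 CPM in MN1, 604, 566 and 557 CPM in MN1pQdel and 838 CPM in noTD. MN1 replicate 2 lay below all the MN1pQdel libraries and the other MN1 libraries above them, so the groups overlapped. The log2 fold change of 0.21 (SE 0.16, adjusted p = 0.361) had a 95% interval of -0.16 to 0.57.

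The TAP transporter is a dimer of TAP1 and TAP2, and of these genes only Tap1 passed the test. Tap1 had 152, 116 and 157 CPM in MN1, 80.25, 72.9 and 73.6 CPM in MN1pQdel and 112 CPM in noTD. All MN1 libraries were above noTD and all MN1pQdel libraries below it. The means were 142 ± 22.5 CPM in MN1 and 75.6 ± 4.03 CPM in MN1pQdel (SD, n = 3 each), for which the log2 fold change was 0.89 (SE 0.14; adjusted p = 0.0112). With each library omitted in turn Tap1 ran from 0.83 to 1.02 and was called in 4 of 6 fits; the adjusted p was 0.0518 without MN1 replicate 1 and 0.0536 without MN1 replicate 3. Tap2 had 229, 217 and 199 CPM in MN1, 253, 182 and 199 CPM in MN1pQdel and 249.97 CPM in noTD, with a log2 fold change of 0.01 (SE 0.15, 95% interval -0.34 to 0.37, adjusted p = 0.959). Within each library the ratio of Tap1 to Tap2 counts was 0.667, 0.534 and 0.787 in MN1, 0.318, 0.401 and 0.370 in MN1pQdel and 0.449 in noTD, a difference of 0.86 in mean log2 ratio between MN1 and MN1pQdel. The groups did not overlap in this ratio (2-sided exact permutation test, p = 0.1, adjusted p = 0.1 over the 6 ratios tested).

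Tapbp encodes tapasin. It had 197, 122 and 194 CPM in MN1, 222, 150.1 and 199 CPM in MN1pQdel and 254 CPM in noTD. Replicate 2 was the lowest library of each transduced group and the groups overlapped, with a log2 fold change of -0.17 (SE 0.23, 95% interval -0.71 to 0.38, adjusted p = 0.616). The sign of Tapbp turned with library totals (0.046), and that of Tap2 turned in 3 of the 6 omissions, so neither has a direction here.

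**Figure D2:**
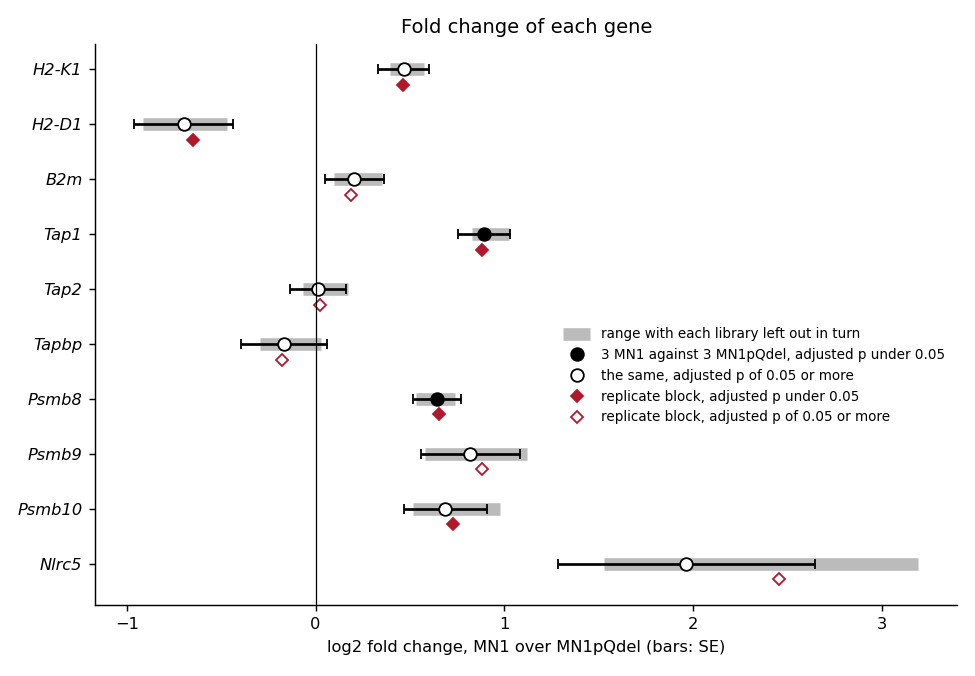
Log2 fold change of MN1 over MN1pQdel for each gene (linear axis in log2 units, circles with SE bars; grey bands are the range with each of 6 libraries left out in turn; diamonds are the fit with the replicate block). Tap1 (0.89) and Psmb8 (0.64) are the filled circles, Nlrc5 has the widest band (1.53 to 3.19), and H2-D1 (-0.70) is the gene farthest below 0.

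The immunosubunits were above MN1pQdel in every MN1 library. Psmb8 encodes beta5i, which replaces the chymotrypsin-like subunit beta5 made from Psmb5. It had 172, 173 and 173 CPM in MN1, 123, 115 and 91.3 CPM in MN1pQdel and 133 CPM in noTD. The MN1 values were nearly equal and all above noTD, and those of MN1pQdel all below it. The means were 173 ± 0.748 CPM in MN1 and 109.7 ± 16.4 CPM in MN1pQdel (SD, n = 3 each), for which the log2 fold change was 0.64 (SE 0.13; adjusted p = 0.0225). Over the same omissions it ran from 0.53 to 0.74 and was called without MN1pQdel replicate 2 (adjusted p = 0.0105) or replicate 3 (0.0456). It missed the threshold without MN1pQdel replicate 1 (0.0552) or without MN1 replicate 1, 2 or 3 (0.0815, 0.0818 and 0.0827).

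Psmb9 encodes beta1i, the counterpart of beta1 from Psmb6. It had 71.3, 60.4 and 63.6 CPM in MN1, 36.9, 49.8 and 23.03 CPM in MN1pQdel and 49.3 CPM in noTD. The groups did not overlap, and MN1pQdel replicate 2 was level with noTD. MN1 over MN1pQdel came to 0.82 in log2 (SE 0.26; adjusted p = 0.0723), and it was 1.12 without MN1pQdel replicate 2 (adjusted p = 0.00882). Psmb9 and Tap1 overlap at their starts and share 10.8% of the 31-base stretches of Psmb9, and without a stated strand setting reads from the overlap cannot be assigned.

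Psmb10 encodes beta2i, the counterpart of beta2 from Psmb7, and lies outside the MHC. It had 54.7, 60.9 and 55.6 CPM in MN1, 31.95, 47.6 and 26.0 CPM in MN1pQdel and 32.6 CPM in noTD. All MN1 libraries were above the other 4, and MN1pQdel replicate 2 was the nearest to them. MN1 over MN1pQdel came to 0.69 in log2 (SE 0.22; adjusted p = 0.0720). It was 0.73 with the replicate block (adjusted p = 0.0316) and 0.98 without MN1pQdel replicate 2 (adjusted p = 0.00285).

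The constitutive counterparts were tested alongside. Psmb5 averaged 143 ± 11.7 CPM in MN1 and 131 ± 18.5 CPM in MN1pQdel, Psmb6 146 ± 6.11 CPM in MN1 and 125 ± 7.79 CPM in MN1pQdel, and Psmb7 155 ± 10.7 CPM in MN1 and 136 ± 9.39 CPM in MN1pQdel (SD, n = 3 each). None of these passed, with log2 fold changes of 0.12, 0.21 and 0.18 and adjusted p between 0.161 and 0.531. Psmb6 and Psmb7 were, like the immunosubunits, above MN1pQdel in every MN1 library, while the groups overlapped for Psmb5. A ratio of counts within a library does not depend on how libraries are scaled. The ratio of Psmb8 to Psmb5 was 1.29, 1.11 and 1.24 in MN1, 0.954, 0.768 and 0.806 in MN1pQdel and 1.15 in noTD. That of Psmb9 to Psmb6 was 0.503, 0.395 and 0.445 in MN1, 0.288, 0.3801 and 0.198 in MN1pQdel and 0.393 in noTD. That of Psmb10 to Psmb7 was 0.364, 0.364 and 0.375 in MN1, 0.233, 0.328 and 0.206 in MN1pQdel and 0.256 in noTD. All 3 ratios were higher in every MN1 library than in any MN1pQdel library, by 0.53, 0.68 and 0.55 in mean log2 ratio. In replicate 2 alone the log2 differences were 0.53, 0.06 and 0.15, so the last 2 ratios were nearly level between the groups in that pair.

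The ratio of H2-K1 to B2m was 0.949, 1.06 and 0.9804 in MN1, 0.852, 0.826 and 0.796 in MN1pQdel and 0.797 in noTD. The ratio of H2-D1 to B2m was 1.02, 1.09 and 0.997 in MN1, 2.35, 1.26 and 2.14 in MN1pQdel and 2.08 in noTD. H2-K1 was thus higher and H2-D1 lower relative to their common partner in MN1, by 0.27 and -0.84 in mean log2 ratio. Each of the 6 ratios separated the groups. The 2-sided exact permutation p was 0.1 before and after adjustment over the 6, the smallest that 3 against 3 unpaired libraries allow. Among single genes, 43.6% were separated in CPM. With the replicate number as a block the adjusted p of each ratio was 0.25, the smallest that 3 pairs allow, so neither value could have been lower.

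**Figure D3:**
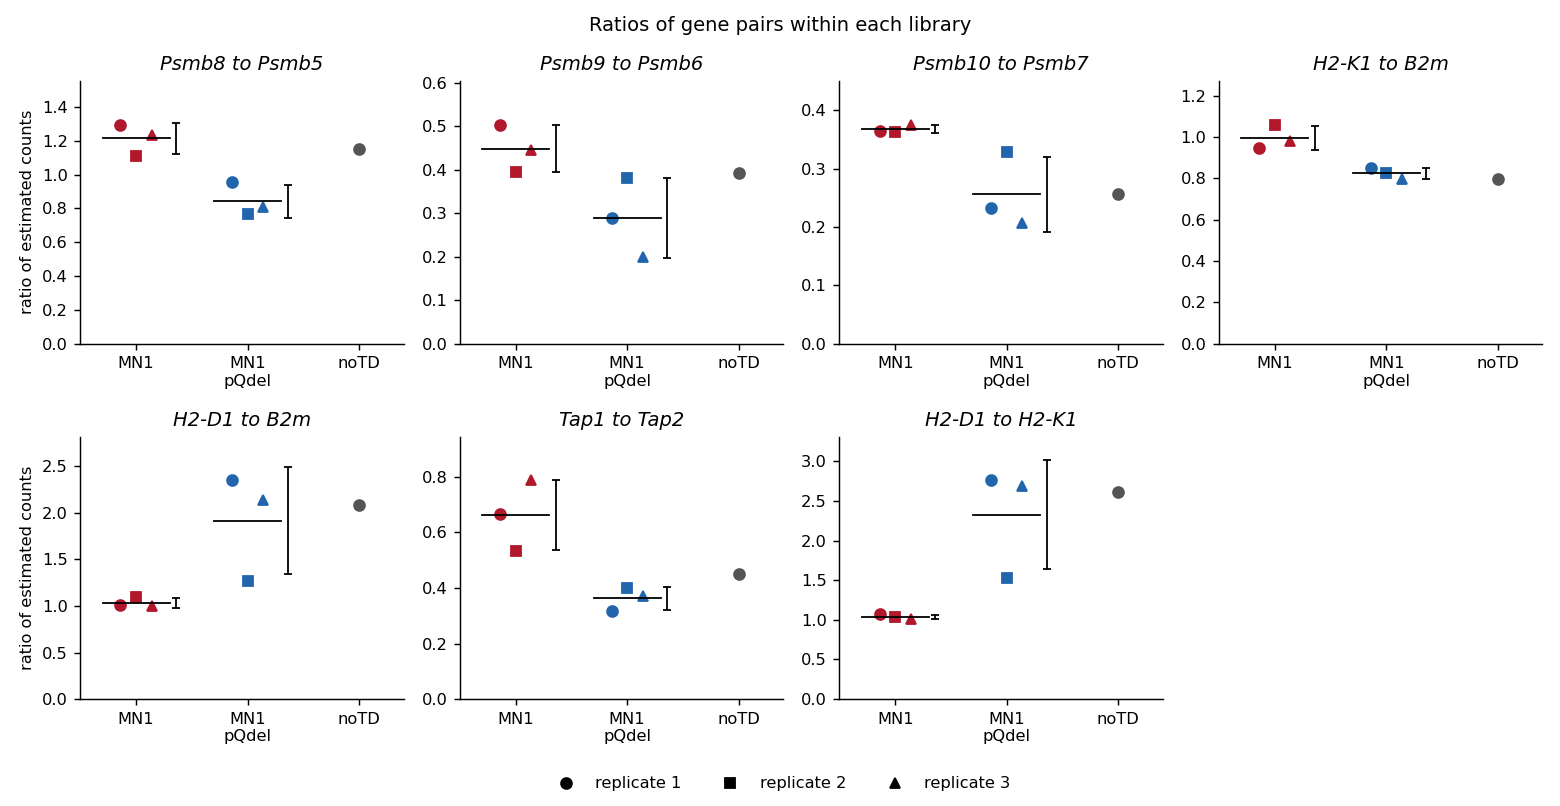
Ratio of estimated counts of gene pairs within each library (linear axes from 0; points are libraries, lines are means, bars are SD over 3 libraries). The MN1 points lie above all MN1pQdel points for Psmb8 to Psmb5, Psmb9 to Psmb6, Psmb10 to Psmb7, H2-K1 to B2m and Tap1 to Tap2, and below them for H2-D1 to B2m and H2-D1 to H2-K1.

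Nlrc5, the class I transactivator, varied most. It had 27.5, 23.6 and 26.5 CPM in MN1, 3.74, 14.2 and 1.86 CPM in MN1pQdel and 12.0025 CPM in noTD. The MN1 libraries were close together and above all others, while MN1pQdel replicate 2 was above noTD and the other MN1pQdel libraries far below it. The means were 25.9 ± 2.01 CPM in MN1 and 6.59 ± 6.62 CPM in MN1pQdel (SD, n = 3 each), for which the log2 fold change was 1.96 (SE 0.68; adjusted p = 0.0868). It was 2.46 with the replicate block (adjusted p = 0.0523) and 3.19 without MN1pQdel replicate 2 (adjusted p = 0.00132), and without any other single library the adjusted p ran from 0.139 to 0.245.

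Between genes, levels can be compared only per length, here CPM per kilobase of the principal GENCODE transcript. B2m was highest in MN1 at 779 ± 144, followed by H2-K1 at 422 ± 56.1 and H2-D1 at 328 ± 47.9 CPM per kilobase (SD, n = 3). The heavy chains differed by less than their summed SD between libraries. Within each MN1 library, however, H2-K1 was above H2-D1, at 465, 359 and 442 against 372, 277 and 336 CPM per kilobase. In MN1pQdel the order was B2m at 669.6 ± 29.1, H2-D1 at 528 ± 171 and H2-K1 at 303 ± 23.03 CPM per kilobase, and it held within each MN1pQdel library. Psmb8 followed in MN1 at 106 ± 0.459, above Tapbp, Tap2, Tap1, Psmb9 and Psmb10, which lay between 66.2 and 43.5 CPM per kilobase, with neighbours in that order within their spread. In MN1pQdel Tapbp (73.6 ± 14.2), Psmb8 (67.4 ± 10.1) and Tap2 (61.4 ± 10.7) did not differ beyond their spread, nor did Tap1, Psmb9 and Psmb10 at 28.9 to 26.8 CPM per kilobase. Nlrc5 was lowest, at 3.41 ± 0.265 in MN1 and 0.869 ± 0.874 CPM per kilobase in MN1pQdel.

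Against the untransduced library, which has no replicate, the transduced groups lay on different sides for part of the set. The rule was a difference of at least 1 in log2 CPM with all 3 libraries on that side. In MN1 Nlrc5 was called higher (1.10) and H2-D1 lower (-1.35), where 10.9% of 16216 genes were called higher and 16.6% lower. In MN1pQdel 0 genes of the set were called in either direction, where 1.65% and 3.39% of all genes were called; without replicate 2 Nlrc5 was called lower. All 3 MN1 libraries were above noTD for Tap1, Psmb8, Psmb9, Psmb10 and Nlrc5, and 41.3% of all genes were. They were below noTD for H2-D1, B2m, Tap2 and Tapbp, as were 39.1% of all genes. All 3 MN1pQdel libraries were below noTD for H2-K1, H2-D1, B2m, Tap1, Tapbp and Psmb8, and 18.1% of all genes were; 0 of the 10 were above it in all 3, beside 23% of all genes. These sides share the noTD library and are not independent. An edgeR quasi-likelihood fit to all 7 libraries, which assumes that the lone library varies like the others, called 0 of the 10 genes in either comparison after Benjamini-Hochberg adjustment, where 0.987% of all genes were called higher and 5.07% lower in MN1 and 0% either way in MN1pQdel. At an unadjusted p under 0.05 it gave 1 higher (Psmb10) and 1 lower (H2-D1) in MN1, beside 2410 and 2873 of the 16216 genes. For MN1pQdel it gave 0 higher and 3 lower (H2-K1, B2m and Tap1), beside 172 and 246 genes.

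**Figure D4:**
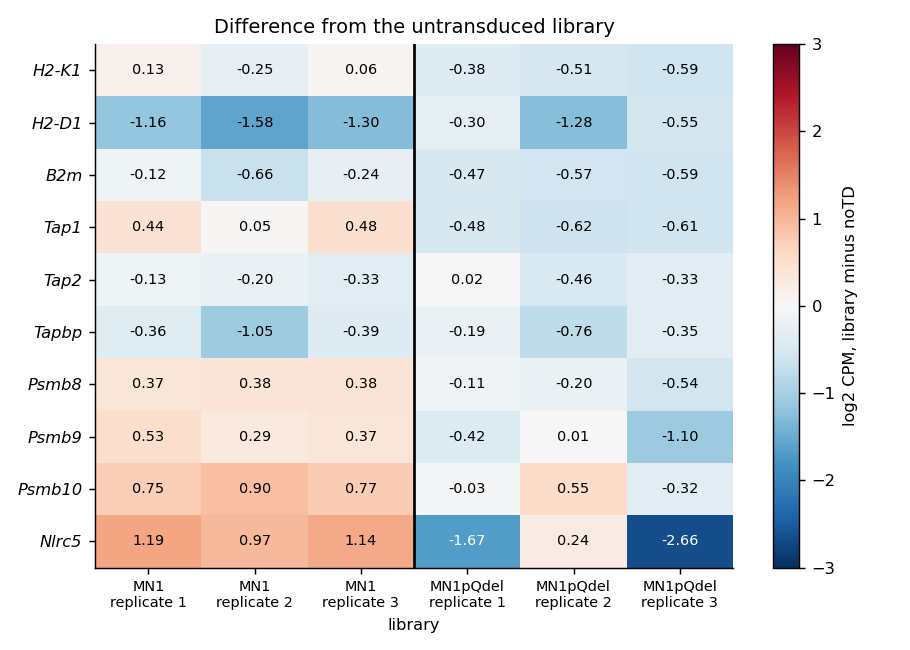
Log2 CPM of each gene (rows) in each transduced library (columns) minus the noTD library, with the value printed in each cell; red is above and blue below noTD. The MN1 columns are red for Tap1, the 3 immunosubunits and Nlrc5 and blue for H2-D1, B2m, Tap2 and Tapbp, and Nlrc5 is at -1.67, 0.24 and -2.66 in MN1pQdel replicates 1, 2 and 3.

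Other genes of the pathway were looked up in 10 lists with 100 different genes. Over these lists 14 genes were higher and 7 lower in MN1, 12 of the 14 being interferon-induced markers. Among 11 tested nonclassical and Qa or Tla class I heavy chains 1 was higher and 0 lower, with a list median of 0.08. H2-Q4, a Qa region heavy chain, averaged 48.9 ± 11.9 CPM in MN1 and 13.9 ± 3.62 CPM in MN1pQdel (SD, n = 3 each), for which the log2 fold change was 1.81 (SE 0.27; adjusted p = 0.00985), and it was called whichever of the 6 libraries was omitted. With the replicate block 4 were higher and 1 lower. That one, H2-T23, which encodes Qa-1, is named after its values were seen: it had 119, 61.2 and 115 CPM in MN1, 189, 73.9 and 168 CPM in MN1pQdel and 227 CPM in noTD. Like H2-D1, H2-T23 was highest in noTD and lowest within MN1pQdel in replicate 2. From the same list H2-Q1, H2-Q10, H2-T22 and H2-T24, also named after their values were seen, had this pattern too, as did Tapbp. The share of all genes with this pattern was not counted, so it is not particular to H2-D1 and H2-T23.

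Class I-like molecules had 0 of 9 higher and 2 lower (1 and 1 with the replicate block). Ulbp1, a ligand of the activating receptor NKG2D, averaged 39.6 ± 7.11 CPM in MN1 and 113 ± 49.1 CPM in MN1pQdel (log2 fold change -1.53, SE 0.35), and Fcgrt, the neonatal Fc receptor gene, 3.68 ± 0.610 CPM in MN1 and 8.40 ± 2.65 CPM in MN1pQdel (-1.20, SE 0.30; SD, n = 3 each), at adjusted p = 0.0320 and 0.0382. Of the 6 single-library omissions Ulbp1 held its call in 1 and Fcgrt in 2. Fcgrt lost its call with the replicate block (adjusted p = 0.0528) and with library totals (adjusted p = 0.0617). Of 8 peptide loading and trimming genes 0 were higher and 1 lower (1 and 2 with the replicate block), which was the aminopeptidase gene Npepps (-0.44, SE 0.11, adjusted p = 0.0412), which lost its call with library totals (-0.24).

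Of the 11 non-catalytic core subunits 0 were called, with a median log2 fold change of 0.16, and the most abundant, Psmb4, was at 0.19 (SE 0.11, adjusted p = 0.263). With the replicate block 3 of the 11 were called higher. The groups did not overlap in CPM for 6 of the 11 with MN1 higher and for 0 with MN1 lower. Over all tested genes these shares were 21.9% and 21.7%. Of 5 activator and assembly genes 1 was higher (2 with the replicate block): Psme1, which encodes the PA28 alpha chain that opens the core, averaged 153 ± 12.9 CPM in MN1 and 114 ± 7.85 CPM in MN1pQdel (SD, n = 3 each), for which the log2 fold change was 0.41 (SE 0.11; adjusted p = 0.0464), held in 1 of the 6 omissions.

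Of the regulators of class I transcription 0 of 14 were called (1 higher with the replicate block), with a median log2 fold change of 0.06. Irf1, an interferon-induced transcription factor, averaged 30.6 ± 5.88 CPM in MN1 and 26.8 ± 6.11 CPM in MN1pQdel, and Nfkb1, the most abundant of the list, 189 ± 12.7 CPM in MN1 and 205 ± 7.21 CPM in MN1pQdel (SD, n = 3 each). The list of interferon ligands, receptors and kinases, which also holds the feedback inhibitor gene Socs1, had 0 of 8 tested genes higher and 3 lower. With the replicate block 6 were lower, Socs1 among them. Jak2 (-1.56, SE 0.29), Jak1 (-1.02, SE 0.19) and the type I receptor chain gene Ifnar2 (-0.45, SE 0.10) were lower in MN1 at adjusted p between 0.0181 and 0.0264. Jak1 held its call in 2 of the 6 omissions, Jak2 and Ifnar2 in 1 each, and Ifnar2 lost it with library totals (-0.25). The ligand genes Ifng, Ifna2, Ifna4 and Ifnb1 stayed at or below 0.106 CPM in every library and did not pass the filter.

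Interferon-induced marker genes were called higher in 12 of 15 and lower in 0, with a median log2 fold change of 3.28. Their summed level was 373, 136 and 464 CPM in MN1, 59.5, 68.5 and 57.1 CPM in MN1pQdel and 423 CPM in noTD. MN1 replicate 2 was thus the lowest MN1 library, and noTD was inside the MN1 range. Irf7 averaged 49.6 ± 29.3 CPM in MN1 and 7.25 ± 0.460 CPM in MN1pQdel (SD, n = 3 each). Mx2 (5.04, SE 0.68), Rtp4 (4.87, SE 0.68), Oasl2 (4.44, SE 0.73) and Ifit1 (3.90, SE 0.73) had the largest log2 fold changes among the called genes, at adjusted p between 0.00815 and 0.0189. The summed CPM of the 3 immunosubunits was 298, 294 and 292 in MN1, 191, 213 and 140.3 in MN1pQdel and 215 in noTD. Of the 10 class I genes, H2-K1, H2-D1, B2m, Tap1, Tapbp, Psmb9 and Nlrc5 had their lowest MN1 value in replicate 2, and Tap2, Psmb8 and Psmb10 did not. The part of this marker signal in the class I values was not tested. With single libraries omitted Mx2 was called in 6 of 6 fits, Rtp4 and Oasl2 in 5 each, and Ifit1 and Irf7 in 2 each.

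MHC class II genes present peptides from outside the cell. Of 9 tested 0 were higher and 1 lower (2 and 2 with the replicate block); this was H2-DMb2, at 1.39 ± 0.324 CPM in MN1 and 3.73 ± 0.919 CPM in MN1pQdel (SD, n = 3 each; log2 fold change -1.43, SE 0.32, adjusted p = 0.0302). H2-DMb2 held its call in 2 of the 6 omissions. Markers of dendritic cells, which carry much class I and II, summed to 67.4 to 114 CPM in MN1, 11.3 to 15.4 CPM in MN1pQdel and 9.34 CPM in noTD, with 1 higher and 1 lower of 5 tested among 8. Flt3 is on this list and also on that of stem and progenitor markers, and its share of the sum was not separated out. B cell markers summed to 109, 116 and 114 CPM in MN1, 27.9, 81.2 and 17.1 CPM in MN1pQdel and 28.97 CPM in noTD, so they too were above MN1pQdel in every MN1 library and highest within MN1pQdel in replicate 2, as Psmb9, Psmb10 and Nlrc5 were. Of the 6 B cell markers 3 were below 0.1 CPM, and 0 of the 3 tested were called. NK cell markers summed to 2.15 to 6.85 CPM in MN1, 0.634 to 1.44 CPM in MN1pQdel and 1.07 CPM in noTD; 3 of 6 were below 0.1 CPM, and the 1 tested was called higher. T cell markers summed to 1.63 to 2.62 CPM in MN1, 2.05 to 4.03 CPM in MN1pQdel and 4.47 CPM in noTD, with 3 of 6 below 0.1 CPM. The part of these cell types in the class I values was not tested.

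**Figure D5:**
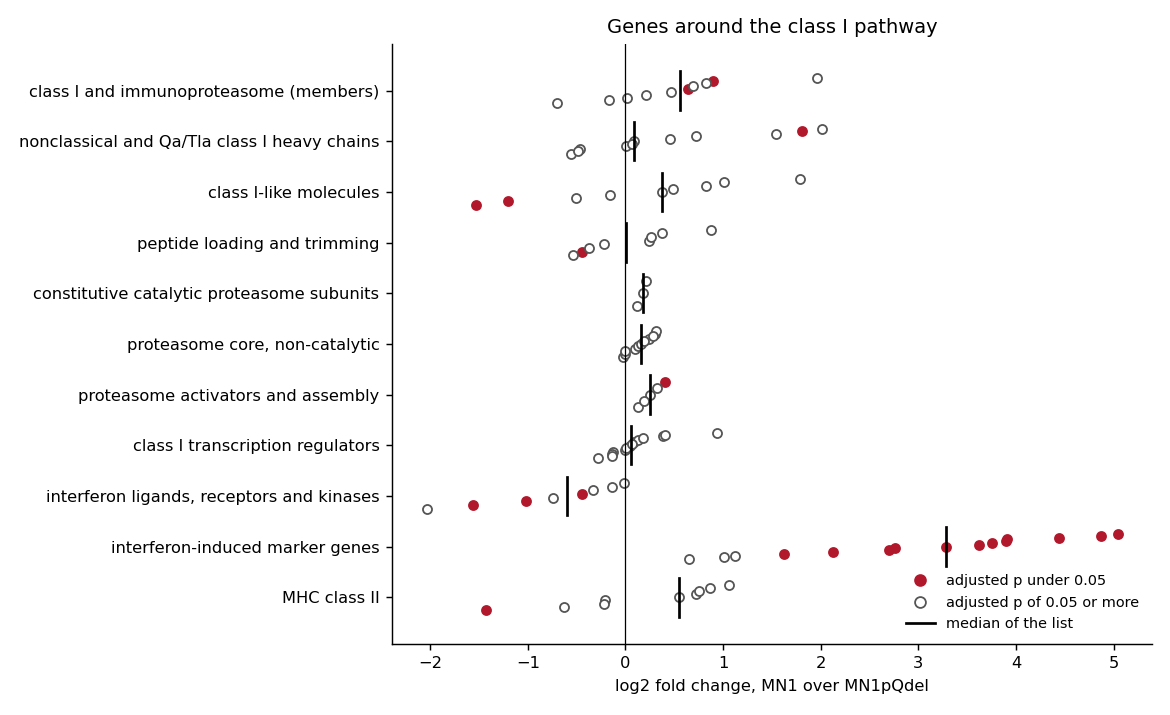
Log2 fold change of MN1 over MN1pQdel (linear axis in log2 units) for the 10 class I and immunoproteasome genes and for each list around them; each circle is a tested gene, filled red where the adjusted p is under 0.05, and the black bar is the list's median. The interferon-induced markers reach 5.04 with a median of 3.28, while the non-catalytic core subunits have a median of 0.16.

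Over the 7 libraries, the 10218 genes averaging 5 CPM or more were ranked by how closely their log2 CPM, centred on its mean, followed the mean profile of the 10 class I genes. The closest were Mgst3, Ogfr, Arhgef40, Psme1 and Nmi, with root mean square differences of 0.09 to 0.14 in log2 CPM. Of the 10 genes themselves H2-K1 was nearest to their mean (0.10) and Nlrc5 farthest (1.12), followed by H2-D1 (0.71). The log2 fold changes of MN1 over MN1pQdel for Mgst3, Ogfr, Arhgef40, Psme1 and Nmi were 0.43, 0.44, 0.58, 0.41 and 0.51. In that order the adjusted p was 0.226, 0.0422, 0.116, 0.0464 and 0.0734, so Ogfr and Psme1 passed the test. These 5 genes were picked for following the mean profile in the same libraries. Their fold changes and this test are therefore not independent of the choice, and no conclusion is drawn from them. Nmi, an interferon-inducible gene and the least close of the 5, averaged 17.1 ± 2.19 CPM in MN1 and 11.9 ± 0.926 CPM in MN1pQdel (SD, n = 3 each).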

How the data were processed

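Poly(A) RNA of 7 libraries was read from both ends at 150 bases, per the labels' protocols. Estimated counts, not normalised, were deposited by the authors for each gene symbol; 32.5% of values were not whole (tolerance 1e-06). The submitters' processing notes name kallisto, DESeq2 and GRCm38; software versions, transcript index and strand are not given in the sources used. Counts of H2-K1, H2-D1, Tap1, Tap2, Tapbp and Psmb9, whose transcripts share sequence with other genes, were not whole, so they depend on how reads were divided. Of the 31-base stretches of Tapbp 26.4% occur in some other gene, and of those of Tap2 15.0%. Psmb8 also shares 7.79% of its stretches, although its counts were whole.

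Counts were rounded, filtered with filterByExpr and TMM-scaled. MN1 (3 libraries) was set against MN1pQdel (3) with the quasi-likelihood test of edgeR 4.0.16 in R 4.3.3, with group as the only term and Benjamini-Hochberg adjustment over 14808 genes; the threshold was 0.05. DESeq2 1.42.0 was an alternative. Differences from noTD used log2 CPM with a prior count of 2, and a 7-library fit over 16216 genes. Library deviations around their group mean had correlations of 0.367, 0.258 and 0.3195 between libraries of the same replicate number, all above 0.1, so replicate numbers count as pairs here; this rests on the data and not on a label. Replicates of a group differed far beyond sampling noise (chi-square per gene of 40.3 or more).

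The 10 genes and the lists were chosen with earlier results of these data known. Named in the text are the 10 genes, from each list up to 4 called genes with the largest fold change or else the most abundant gene, Psmb5, Psmb6, Psmb7, Irf1 and Irf7, and the 5 genes of most similar profile. Symbols were matched to GENCODE M21 (GRCm38); promoter sequences are from RefSeq. The symbols of 26 rows had been turned into dates and are not named. The marker Siglecf matched no symbol. Some genes the naming rule covers are not reported here. Single library intervals are not given, since spread between libraries far exceeds counting error.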

Additional observations from a re-analysis of the deposited data

How the results depend on the processing

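Over 15 alternatives the log2 fold changes of H2-K1, H2-D1, B2m, Tap1, Psmb8, Psmb9, Psmb10 and Nlrc5 kept their sign; Tap1 lost its call in 2 of them and Psmb8 in 4. The count of the 10 genes called higher in MN1 was 2, and it was 5 with library totals, 6 with DESeq2, 4 with the replicate block and 7 without the replicate 2 pair, with 0 to 6 when single libraries were left out. The count called lower was 0, and it was 1 with the replicate block, 1 without the replicate 2 pair and 0 to 1 with single libraries left out. DESeq2 size factors within edgeR, no filter, a stricter filter, unrounded counts and a fit to all 7 libraries gave the same counts of 2 and 0. The block changed no call of the 10 genes beyond those of H2-K1, H2-D1 and Psmb10.

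Tap2 turned to -0.0051 with the stricter filter of 5 CPM in 3 libraries, to -0.053 without the replicate 2 pair and lay between -0.068 and 0.17 over the omissions; Tapbp turned to 0.046 with library totals and lay between -0.29 and 0.031. The pathway lists had 14 genes called higher and 7 lower, 27 and 12 with the replicate block, 25 and 4 with library totals, and 2 to 28 and 0 to 14 with single libraries left out. The 6 ratios kept their sign in every alternative. The adjusted p of each was 0.1 in the unpaired exact permutation test and 0.25 with the replicate number as a block. Each is the smallest value that its test allows with 3 libraries in a group. Against noTD the calls of 1 higher and 1 lower in MN1 became 0 and 0 in the 7-library fit, and the count lower in MN1pQdel was 0 to 1 over the omissions, an alternative chosen after seeing the data. The cause of these shifts was not tested.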
